A study of Mus musculus with 9 samples.

Results

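The 10 genes examined here belong to TGF-beta and BMP signalling in endothelium and were followed in RNA bound to tagged ribosomes from mouse white adipose tissue. They are the receptor genes Eng, Acvrl1, Bmpr2 and Tgfbr2, the signal transducer Smad1, the inhibitory Smad genes Smad6 and Smad7, and the target genes Id1, Id2 and Id3. They were chosen by name, under a rule that uses no measured value, and all 10 were found among the 11802 genes listed. The 5 libraries labelled KO came from mice of the strain Pdgfb-iCreERT2:Mfn2ideltaEC:Rpl22HA, in which endothelial Mfn2 is absent according to the labels. The 4 libraries labelled WT came from Pdgfb-iCreERT2:Rpl22HA mice, in which it is present. Both groups carried the Pdgfb-iCreERT2 driver, an inducible Cre active in endothelial cells, and an HA-tagged form of the ribosomal protein Rpl22, so that an antibody to HA pulls down ribosomes of the cells in which Cre acted. Age, induction schedule and any pooling of animals were not given in the sources used here. Replicates are labelled biological but no animal is identified, and each p-value therefore measures spread among these libraries, which may be technical.

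Ligands of the TGF-beta family bring together type I and type II receptor kinases at the cell surface, and the activated type I receptor phosphorylates Smad proteins that enter the nucleus with Smad4. Endoglin, the product of Eng, is a co-receptor that in endothelium works with the type I receptor encoded by Acvrl1 and the type II receptor encoded by Bmpr2. Their best known output is phosphorylation of Smad1 and transcription of the Id genes, while Smad6 and Smad7 are induced by the pathway and damp it. In humans, loss-of-function variants of ENG and ACVRL1 cause hereditary haemorrhagic telangiectasia, a disease of malformed vessels.

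The upstream windows of Eng, Tgfbr2 and Smad6 are shown because these are the 3 genes whose RefSeq and GENCODE M21 starts lay within 5 bases of each other, so that the 250 bases before the start lie outside the annotated gene. Sequences are those of RefSeq (GRCm38.p6), where 7 of the 10 genes matched, and each is written 5′ to 3′ on the strand of its gene. Capitals mark CAGAC or its complement GTCTG, the short box that Smad proteins bind. The window of Eng is chr2:32646345-32646594 (plus strand), that of Tgfbr2 is chr9:116175364-116175613 (minus strand) and that of Smad6 is chr9:64022060-64022309 (minus strand).
Eng: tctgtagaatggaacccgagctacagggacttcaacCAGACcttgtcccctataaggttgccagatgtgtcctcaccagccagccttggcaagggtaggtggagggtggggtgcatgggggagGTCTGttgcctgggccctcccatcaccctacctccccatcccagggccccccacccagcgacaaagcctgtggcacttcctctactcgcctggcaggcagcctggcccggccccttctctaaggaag
Tgfbr2: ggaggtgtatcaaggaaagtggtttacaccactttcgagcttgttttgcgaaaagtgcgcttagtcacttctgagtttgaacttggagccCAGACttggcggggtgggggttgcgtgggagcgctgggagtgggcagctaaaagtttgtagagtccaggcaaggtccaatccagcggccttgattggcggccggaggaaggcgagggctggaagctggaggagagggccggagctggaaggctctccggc
Smad6: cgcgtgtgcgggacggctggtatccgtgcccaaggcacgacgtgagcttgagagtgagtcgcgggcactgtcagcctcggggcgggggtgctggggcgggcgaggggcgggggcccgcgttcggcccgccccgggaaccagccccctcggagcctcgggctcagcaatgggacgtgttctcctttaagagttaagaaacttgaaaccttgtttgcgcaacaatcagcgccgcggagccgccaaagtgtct
The box occurred at 2 places before Eng and at 1 place before Tgfbr2, and these letters were not in the window of Smad6. Among the 7 matched genes 3 held it (Eng, Tgfbr2 and Id3), against 42.2% of 32536 distinct windows of the same length over all genes. The GC-rich motif GGCGCC, which reads the same on both strands, was in the windows of Bmpr2 and Id2, against 9.65% of all windows. The RefSeq starts of Bmpr2, Id2 and Id3 lay 879, 1048 and 325 bases from their GENCODE starts. The windows of these genes lie inside the gene as GENCODE annotates it, not upstream of it. Both strands were searched for each motif, the pair of motifs was picked after the sequences were seen, and a match is a description of letters only.

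The libraries held between 1615968 and 3829356 listed reads in KO and between 1034753 and 2501048 in WT. Endothelial genes were present in every library: the summed level of 22 endothelial markers ran from 3772 to 8935 CPM (reads scaled to a common library total) in KO and from 1274 to 4329 CPM in WT (Kdr, Vwf and Pecam1 highest; here and below, by the mean over all 9 libraries). Genes of other cells were captured too. Summed CPM ran from 2059 to 8807 in KO and 2052 to 7251 in WT for 10 fibroblast markers (Col3a1, Col1a2 and Gsn highest), from 2119 to 4421 in KO and 1191 to 2266 in WT for 14 adipocyte markers (Plin4, Lipe and Plin1 highest), and from 734 to 1580 in KO and 294 to 1163 in WT for 11 macrophage markers (Cd163, C1qa and Mrc1 highest). For 7 pericyte and smooth muscle markers (Myh11, Notch3 and Acta2 highest) the sums were 298 to 574 CPM in KO and 116 to 242 CPM in WT. For 3 lymphatic markers (Flt4, Lyve1 and Reln) they were 35.8 to 141 CPM in KO and 16.7 to 55.1 CPM in WT. For 9 skeletal muscle markers (Myh4, Ttn and Tnnt3 highest) they were 474 to 8555 CPM in KO, the highest in KO replicate 5, and 104 to 264 CPM in WT. By limma in the deposited CPM, 9 of 9 skeletal muscle markers (median log2 fold change 3.02) and 18 of 22 endothelial markers (median 1.49) were called higher in KO, against 32.0% of all genes. Of the other lists 1 of 3 lymphatic, 3 of 7 pericyte and smooth muscle, 4 of 14 adipocyte, 2 of 11 macrophage and 0 of 10 fibroblast markers were. Relative to the library median no marker was called, with medians of 2.05 for skeletal muscle and 0.52 for endothelium. Within a list, at least 1 library was at 0 for 1 fibroblast, 1 adipocyte, 1 lymphatic and 1 skeletal muscle marker in WT and for none in KO. The part of these other cells in the levels below was not tested, and in such bulk captures fewer cells of a type and less RNA per cell cannot be told apart. Mfn2, the targeted gene (chromosome 4, 147873599 to 147904704), was at 130, 35.4, 57.0, 65.6 and 46.0 CPM in the libraries labelled KO 1 to 5, against 20.2, 55.8, 30.5 and 38.0 CPM in those labelled WT 1 to 4. The groups overlapped, at 66.7 ± 37.0 CPM in KO (SD, n = 5) and 36.1 ± 15.0 CPM in WT (SD, n = 4; log2 fold change 0.81, limma adjusted p = 0.132). Its level did not check the labels, so each direction below rests on the labels alone.

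All 10 genes had higher mean CPM in KO, and 7 of them rose by the test across all genes. Tgfbr2, Bmpr2, Eng, Id3, Smad1, Acvrl1 and Smad6 were called higher (limma on log2(CPM + 1), Benjamini-Hochberg adjusted p under 0.05), none was called lower, and the background was 32.0% of all genes called higher and 0.203% lower. The median log2 fold change, KO over WT, was 1.26 over the 10 genes and 1.10 over all 11802 genes, of which 94.6% lay above 0. KO and WT libraries did not overlap in CPM for 2 of the 10 genes, Bmpr2 and Tgfbr2, against 18.7% of all genes with KO higher and 0.0254% with KO lower. The share of the 2 mitochondrial ribosomal RNAs went the opposite way to this shift of all genes. They took 18.2% ± 4.76 of reads in KO (n = 5) and 43.6% ± 21.4 in WT (n = 4, exact two-sided permutation p = 0.0476). The exact permutation p was from 0.0893 to 0.143 when any library but WT replicate 4 was left out. The share was 13.9% in WT replicate 4 and 47.5% to 64.8% in the other WT libraries. When CPM were recomputed without those 2 RNAs, 0 of the 10 genes and 26 of all genes were called. The count of 7 was 2 without WT replicate 1 or WT replicate 3, 3 without KO replicate 3 or KO replicate 5, and 4 without KO replicate 4, and it was 8 without both WT replicate 4 and KO replicate 5.

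**Figure D1:**
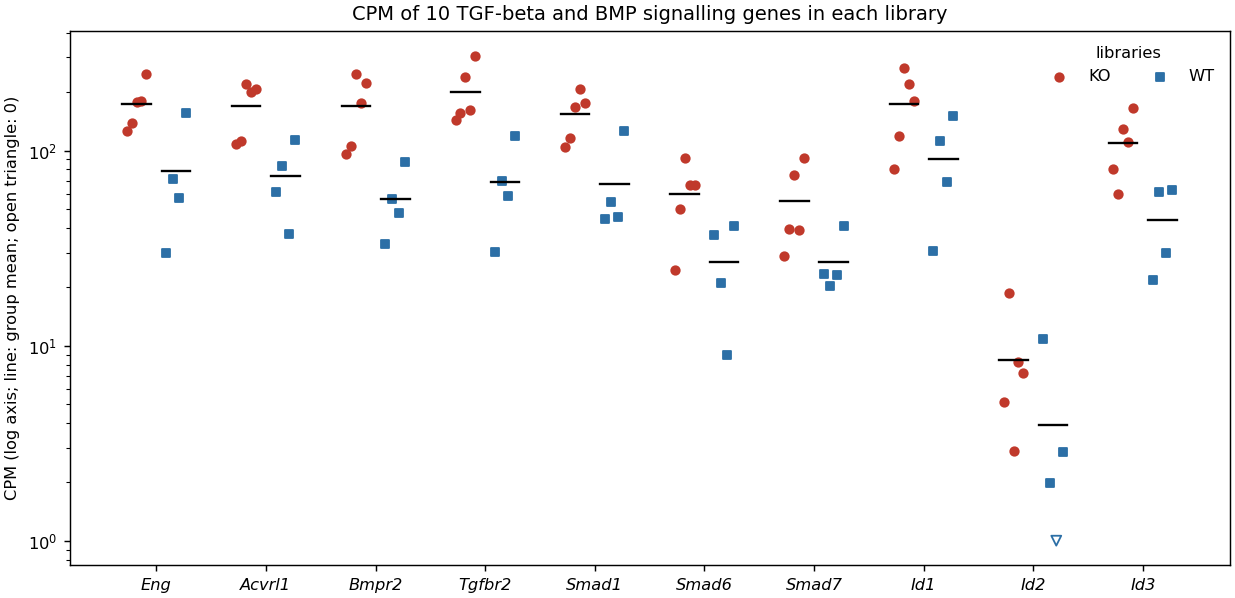
CPM of each gene (log axis) in each of 5 KO libraries (circles) and 4 WT libraries (squares), with a line at the group mean and an open triangle for a library at 0. For Bmpr2 and Tgfbr2 all KO circles lie above all WT squares, and Id2 lies lowest in both groups, at 8.42 CPM in KO and 3.91 CPM in WT on average.

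Set against the median gene of each library, none of the 10 genes was called in either direction. For these relative values, each library's median log2(CPM + 1) was subtracted before the same test, which called 0.0339% of all genes higher and 0.0763% lower. At an unadjusted p under 0.05 the limma test picked 1 of the 10 genes, Tgfbr2, against 11.7% of all genes. On whole reads recovered from the CPM, edgeR called 0 of the 10 (0 at an unadjusted p under 0.05) and DESeq2 called 0 (1 at an unadjusted p under 0.05), against 0.0424% (edgeR) and 1.19% (DESeq2) of all genes called, and 11.2% and 12.7% at the unadjusted threshold. The median relative log2 fold change was 0.28 over the 10 genes and 0.12 over all genes, and 9 of the 10 lay above 0, against 57.9% of all genes. Relative values of the groups overlapped for all 10 genes, while 2.07% of all genes had KO above WT without overlap and 1.74% had KO below WT without overlap.

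Endothelial markers also averaged higher in KO relative to the library median, though not past the test, so each gene was set against them as well. The mean relative log2 value of the 22 markers was 2.98 ± 0.47 in KO (n = 5) and 2.48 ± 0.27 in WT (n = 4), a difference of 0.50 (exact two-sided permutation p = 0.119). With each library centred on these markers, 8 of the 10 genes had a log2 fold change below 0, from −0.56 for Smad7 to −0.14 for Id3, and Bmpr2 and Tgfbr2 stood at 0.08 and 0.13. These 2 of 10 above 0 compare with 25.5% of all genes. None was called by limma on this scale, none reached an unadjusted p under 0.05, and 0% of all genes were called (13.7% at an unadjusted p under 0.05). This centring moved the median of all genes to −0.38, and the median of the 10 genes was −0.22.

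**Figure D2:**
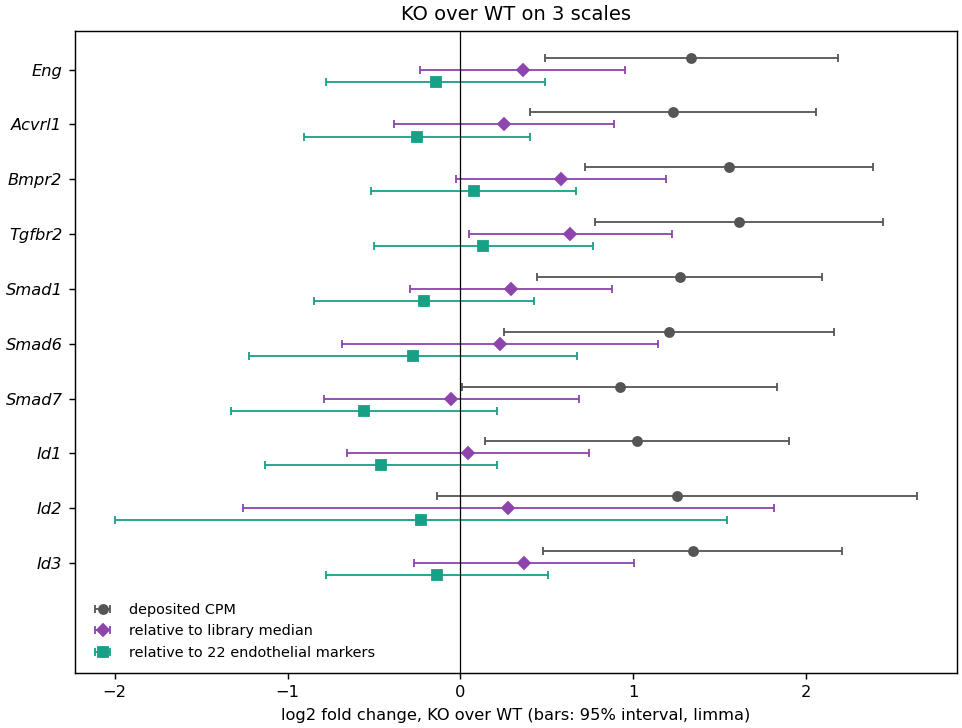
Log2 fold change, KO over WT, of each gene (rows) in the deposited CPM, relative to the library median, and relative to 22 endothelial markers, with 95% intervals from limma (5 KO and 4 WT libraries). All intervals are before adjustment. In the deposited CPM 9 of 10 intervals lie above 0, including those of Smad7 and Id1, which were not called after adjustment. Relative to the library median only that of Tgfbr2 lies above 0, from 0.05 to 1.22, and relative to the endothelial markers all include 0.

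Among the receptors, Tgfbr2 and Bmpr2 had the most positive fold changes of the 10 genes, although on the endothelial scale they lay near 0. Each centring moves the fold changes of all genes by the same amount, so the order of genes is the same on the 3 scales by construction. Tgfbr2 encodes the type II receptor that binds TGF-beta (ENSMUSG00000032440; GRCm38 chromosome 9, 116084293 to 116175360, minus strand). It was at 143, 156, 237, 160 and 307 CPM in KO replicates 1 to 5, against 30.1, 69.6, 58.8 and 119 CPM in WT replicates 1 to 4. Every KO library lay above every WT library, the nearest being KO replicate 1 and WT replicate 4. Group levels were 201 ± 70.0 CPM in KO (SD, n = 5) and 69.4 ± 36.9 CPM in WT (SD, n = 4), a log2 fold change of 1.61 (SE 0.415, adjusted p = 0.00862 by limma). The relative log2 fold change was 0.64 (SE 0.281, adjusted p = 0.385 by limma), with a 95% interval from 0.05 to 1.22 before adjustment.

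Bmpr2, the type II receptor for BMP ligands, is on chromosome 1 (ENSMUSG00000067336; 59763400 to 59879014, plus strand). Its CPM were 96.2, 105, 246, 176 and 223 in KO replicates 1 to 5, against 33.3, 56.2, 47.8 and 87.4 in WT replicates 1 to 4. Again no WT library reached the lowest KO library. The means were 169 ± 67.5 CPM in KO (n = 5) and 56.2 ± 22.9 CPM in WT (n = 4), with a KO over WT change of 1.56 in log2 CPM (SE 0.414, adjusted p = 0.0100 by limma) and a change relative to the median of 0.58 (SE 0.291, adjusted p = 0.457; 95% interval −0.03 to 1.19). Relative to the library median, the 4 WT libraries were closely grouped, from 2.22 to 2.37 on the log2 scale, and KO ran from 2.19 in replicate 1 to 3.46 in replicate 3. The calls of Tgfbr2 and Bmpr2 in the deposited CPM held in each of the 9 settings that left out 1 library, with adjusted p up to 0.0457 for Tgfbr2 and 0.0437 for Bmpr2. Both calls were lost without the mitochondrial rRNAs (limma adjusted p = 0.0738 for Tgfbr2 and 0.0884 for Bmpr2) and with quantile normalization (0.327 and 0.436). They were also lost with the rRNA share or the endothelial markers as a covariate.

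For Eng and Acvrl1, the co-receptor and its type I partner, the groups overlapped. Eng (ENSMUSG00000026814; chromosome 2, 32646595 to 32682669, plus strand) was at 126, 138, 177, 180 and 246 CPM in KO replicates 1 to 5, against 29.7, 71.6, 57.2 and 156 CPM in WT replicates 1 to 4. WT replicate 4 lay above KO replicates 1 and 2, and the other WT libraries lay below all KO libraries. The means were 173 ± 46.9 CPM in KO (n = 5) and 78.6 ± 54.4 CPM in WT (n = 4), with a KO over WT change of 1.34 in log2 CPM (SE 0.422, adjusted p = 0.0200 by limma) and a change relative to the median of 0.36 (SE 0.286, adjusted p = 0.661; 95% interval −0.23 to 0.96). The Eng call was lost without KO replicate 5 (adjusted p = 0.0501), WT replicate 1 (0.103) or WT replicate 3 (0.0563). Eng shares exonic bases with Fpgs on the other strand, at 13.6 CPM on average over the 9 libraries, and without strand the reads of the shared bases cannot be told apart.

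Acvrl1 (ENSMUSG00000000530; chromosome 15, 101128522 to 101145336, plus strand) had 107, 112, 220, 200 and 207 CPM in KO replicates 1 to 5, against 61.2, 83.5, 37.3 and 113 CPM in WT replicates 1 to 4. KO replicates 1 and 2 lay just below WT replicate 4, and KO replicates 3 to 5 lay above all WT libraries. The means were 169 ± 54.8 CPM in KO (n = 5) and 73.8 ± 32.3 CPM in WT (n = 4), with a KO over WT change of 1.23 in log2 CPM (SE 0.411, adjusted p = 0.0250 by limma) and a change relative to the median of 0.25 (SE 0.306, adjusted p = 0.792; 95% interval −0.38 to 0.89). The call was lost without KO replicate 3 (adjusted p = 0.0723), KO replicate 4 (0.0638), KO replicate 5 (0.0560), WT replicate 1 (0.0669) or WT replicate 3 (0.108). An antisense gene, Gm16031, overlaps Acvrl1 in the annotation and has no value here.

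Smad1, which carries the BMP signal to the nucleus, was called higher in the deposited CPM. The gene (ENSMUSG00000031681; chromosome 8, 79338395 to 79399518, minus strand) had 105, 116, 167, 207 and 175 CPM in KO replicates 1 to 5, against 44.6, 54.6, 45.7 and 125 CPM in WT replicates 1 to 4. WT replicates 1 to 3 were close together, and WT replicate 4 stood apart and lay above KO replicates 1 and 2. Levels were 154 ± 42.5 CPM in KO (n = 5) and 67.6 ± 38.8 CPM in WT (n = 4), with a KO over WT change of 1.27 in log2 CPM (SE 0.410, adjusted p = 0.0219 by limma) and a change relative to the median of 0.29 (SE 0.280, adjusted p = 0.732; 95% interval −0.29 to 0.88). The call was lost without KO replicate 3 (adjusted p = 0.0557), KO replicate 4 (0.0640), WT replicate 1 (0.0730), WT replicate 2 (0.0513) or WT replicate 3 (0.0695).

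For the inhibitory Smad genes the groups overlapped as well. Smad6, which mainly restrains BMP receptors and Smad1 (ENSMUSG00000036867; chromosome 9, 63953076 to 64022059, minus strand), was at 24.3, 50.2, 91.2, 66.8 and 66.9 CPM in KO replicates 1 to 5, against 36.9, 21.0, 8.93 and 40.9 CPM in WT replicates 1 to 4. KO replicate 1 fell within the WT range, and the other 4 KO libraries lay above it. Its means were 59.9 ± 24.7 CPM in KO (n = 5) and 26.9 ± 14.8 CPM in WT (n = 4), with a KO over WT change of 1.21 in log2 CPM (SE 0.475, adjusted p = 0.0470 by limma) and a change relative to the median of 0.23 (SE 0.439, adjusted p = 0.880; 95% interval −0.68 to 1.14). WT replicate 3 held 17 reads of Smad6, and without it the log2 fold change was 0.78 (adjusted p = 0.212). The Smad6 call did not hold without KO replicate 2 (0.0591), KO replicate 3 (0.126), KO replicate 4 (0.0964) or KO replicate 5 (0.0847). It was also lost when WT replicate 1 (0.0619) or WT replicate 2 (0.0902) was omitted, and with a pseudocount of 0.5 (0.0503).

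Smad7 acts on both TGF-beta and BMP receptors (ENSMUSG00000025880; chromosome 18, 75367529 to 75395935, plus strand). It had 28.8, 39.7, 75.0, 39.2 and 91.6 CPM in KO replicates 1 to 5, against 23.4, 20.2, 23.1 and 40.9 CPM in WT replicates 1 to 4. Only KO replicates 3 and 5 lay above WT replicate 4, the highest WT library. The means of 54.9 ± 27.0 CPM in KO (n = 5) and 26.9 ± 9.43 CPM in WT (n = 4) gave a log2 fold change of 0.92 (SE 0.453, adjusted p = 0.0962 by limma), with a call at 0.0331 once WT replicate 4 was left out. The relative change was −0.05 (SE 0.354, adjusted p = 0.969; 95% interval −0.79 to 0.69), and its sign changed between settings.

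The Id genes encode inhibitors of basic helix-loop-helix transcription factors and are direct BMP targets. Id3 was the only Id gene called. This gene (ENSMUSG00000007872; chromosome 4, 136143497 to 136145755, plus strand) was at 80.4, 60.2, 129, 110 and 165 CPM in KO replicates 1 to 5, against 21.6, 61.3, 29.9 and 62.7 CPM in WT replicates 1 to 4. Only KO replicate 2 lay within the WT range. Levels of 109 ± 41.1 CPM in KO (n = 5) and 43.9 ± 21.2 CPM in WT (n = 4) gave a KO over WT change of 1.34 in log2 CPM (SE 0.430, adjusted p = 0.0211 by limma) and a change relative to the median of 0.37 (SE 0.306, adjusted p = 0.683; 95% interval −0.27 to 1.01). The call was lost without KO replicate 3 (adjusted p = 0.0576), KO replicate 5 (0.0594), WT replicate 1 (0.0898) or WT replicate 3 (0.0659).

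Id1 (ENSMUSG00000042745; chromosome 2, 152736251 to 152737410, plus strand) had 80.4, 118, 264, 220 and 179 CPM in KO replicates 1 to 5, against 30.6, 112, 69.3 and 150 CPM in WT replicates 1 to 4. KO replicates 1 and 2 lay inside the WT range. The means were 172 ± 74.4 CPM in KO (n = 5) and 90.5 ± 51.8 CPM in WT (n = 4), with a log2 fold change of 1.02 (SE 0.437, adjusted p = 0.0626 by limma) that passed the threshold without KO replicate 1 (0.0304) or WT replicate 4 (0.0136). The relative change was 0.05 (SE 0.337, adjusted p = 0.973; 95% interval −0.66 to 0.75), with the sign changing between settings.

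Id2 had the fewest reads of the 10 genes (ENSMUSG00000020644; chromosome 12, 25093799 to 25097140, minus strand). It had 17, 39, 8, 14 and 28 reads in KO replicates 1 to 5, against 24, 5, 0 and 3 reads in WT replicates 1 to 4. In CPM these were 5.16, 18.6, 2.89, 8.20 and 7.20 in KO and 10.8, 1.98, 0 and 2.85 in WT. Counting error allows up to 3 reads where 0 were seen, or 1.58 CPM in WT replicate 3. WT replicate 1 exceeded 4 of the 5 KO libraries, so the groups overlapped. The log2 fold change of 1.25 (SE 0.691, adjusted p = 0.133 by limma) and the relative change of 0.28 (SE 0.738, adjusted p = 0.919; 95% interval −1.26 to 1.81) leave changes of either sign within the interval.

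**Figure D3:**
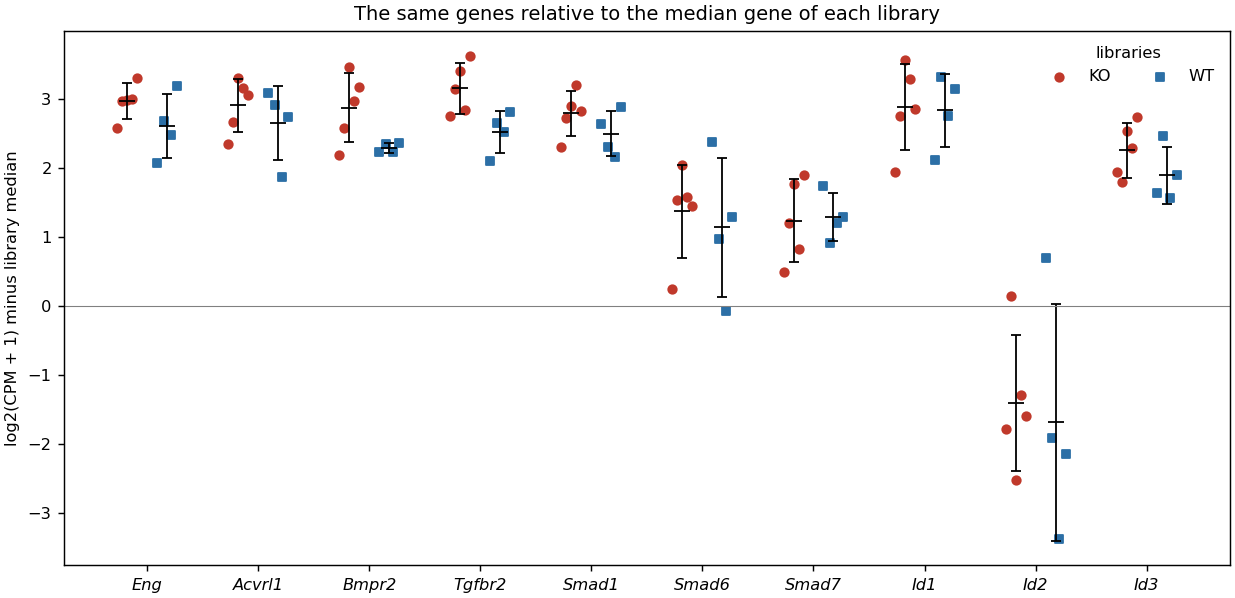
Log2(CPM + 1) of each gene minus the library median, in each of 5 KO libraries (circles) and 4 WT libraries (squares), with mean and SD. The groups overlap for all 10 genes, WT libraries of Bmpr2 lie between 2.22 and 2.37, and Id2 lies below the median gene in every library but KO replicate 2 and WT replicate 1.

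Levels were compared between genes per kilobase of exon, since longer transcripts give more reads. Id1 was the most abundant of the 10 in both groups, at 149 ± 64.1 CPM per kilobase in KO (SD, n = 5) and 78.0 ± 44.7 CPM per kilobase in WT (SD, n = 4). The order was Id1, Id3, Eng, Acvrl1, Smad1, Tgfbr2, Smad6, Smad7, Bmpr2 and Id2 in KO, and it was the same in WT. The mean ± SD ranges of all neighbouring pairs overlapped in both groups, except those of Id1 and Id3 in KO. Bmpr2, with 17983 exonic bases, stood ninth at 9.40 ± 3.75 CPM per kilobase in KO and 3.12 ± 1.27 in WT, and Id2 stood last at 3.45 ± 2.49 in KO and 1.60 ± 1.95 in WT. With the longest transcript as the length, parts of this order changed. In KO the ranges of Id1 (149 ± 64.1) and Id3 (85.3 ± 32.1) then overlapped too, and Bmpr2 at 13.1 stood before Smad7 at 12.8. In WT Smad6 at 9.06 stood before Tgfbr2 at 8.57, so that the orders of the groups were no longer the same, and neighbouring pairs all overlapped in both groups. Smad1 kept its place, at 40.7 in KO and 17.9 in WT, against 24.6 in KO and 10.8 in WT with all exonic bases.

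**Figure D4:**
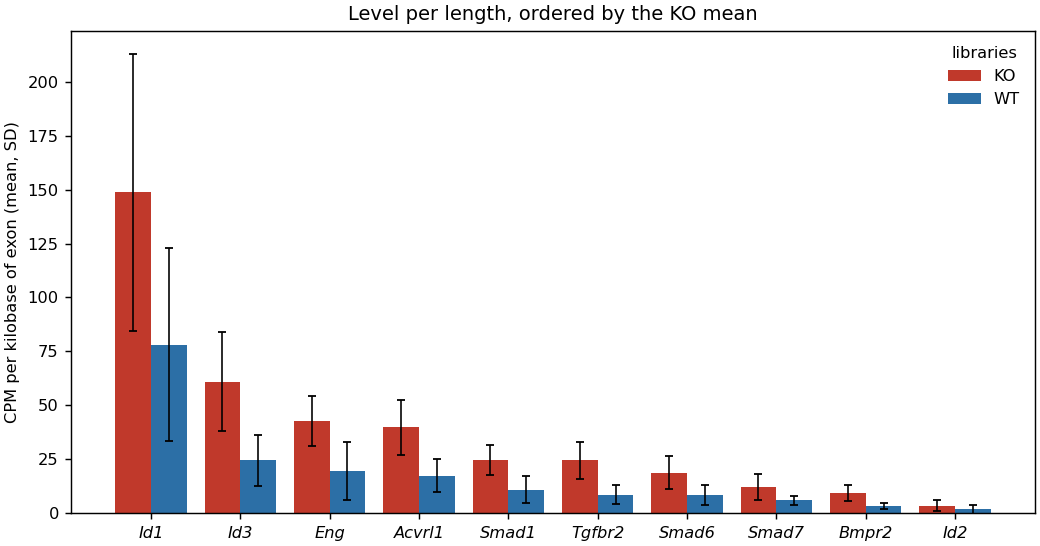
Mean CPM per kilobase of exon with SD, 5 KO libraries beside 4 WT libraries, for the 10 genes ordered by the KO mean. Id1 stands highest at 149 in KO and 78.0 in WT, and Id2 lowest at 3.45 in KO and 1.60 in WT.

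Within groups the genes differed in how much they varied. The coefficient of variation of CPM ran from 27.1% (Eng) to 72.0% (Id2) in KO and from 35.1% (Smad7) to 122% (Id2) in WT. Averaged over the 10 genes, each centred on its own mean, the relative log2 values were 0.37 and 0.36 in KO replicates 3 and 5, 0.21 and 0.18 in KO replicates 4 and 2, and −0.47 in KO replicate 1. In WT they were 0.10, −0.11, −0.64 and −0.02 in replicates 1 to 4. KO replicate 1 therefore lay below WT replicates 1, 2 and 4, and WT replicate 3 lay lowest of all libraries. Acvrl1 and Smad1 followed this average most closely, with root-mean-square distances of 0.19 and 0.20 on the log2 scale over 9 libraries, and Id2 least closely at 1.10. Among 5222 other genes with a mean of at least 20 CPM, those nearest to the average were Cavin1 (0.11), Gm5905 (0.12), Tinagl1 (0.13), Arf6 (0.14) and Rnf14 (0.15). Cavin1 encodes a coat protein of caveolae, the membrane pits abundant in endothelial cells and adipocytes.

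Ratios of CPM + 1 within a library depend little on its scaling, and none of 5 ratios between members was shown to differ between groups. These 5 pairs were chosen after the values were seen. The log2 ratio of Bmpr2 over Acvrl1 was −0.03 ± 0.16 in KO (n = 5) and −0.36 ± 0.51 in WT (n = 4; exact two-sided permutation p = 0.222, 0.774 adjusted over the 5 ratios). That of Id1 over Id3 was 0.62 ± 0.52 in KO (n = 5) and 0.94 ± 0.35 in WT (n = 4; exact permutation p = 0.310, adjusted 0.774). The 3 other ratios, Eng over Acvrl1, Tgfbr2 over Bmpr2 and Smad6 over Smad1, differed by 0.11, 0.06 and −0.06 between KO and WT (exact permutation p = 0.802, 0.849 and 0.897, each 0.897 after adjustment). For Eng over Acvrl1 the WT libraries spread from −1.02 in replicate 1 to 0.61 in replicate 3, wider than the KO libraries, which spread from −0.31 to 0.30.

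Among other genes of the pathway, each list held genes called higher in the deposited CPM, beside 32.0% of all genes, and none was called in either direction relative to the library median. Where no overlap is stated below, the background is 18.7% of all genes with KO above WT in CPM without overlap. Of 24 ligand genes looked for, 7 were among the genes listed. Of these 7, 4 were called higher by limma, with a median log2 fold change of 1.63, against 1.10 over all genes. Gdf15 and Gdf11 held 2 and 5 reads over the 4 WT libraries, against 191 and 58 over the 5 KO libraries. Genes this low in WT may be listed only through their KO reads, which would raise the count and median of this short list. That was not tested. Tgfb1, the prototype ligand, was at 34.9 ± 20.4 CPM in KO (n = 5) and 8.81 ± 4.23 CPM in WT (n = 4), with a log2 fold change of 1.82 (adjusted p = 0.0133 by limma) and no overlap. Without KO replicate 5, which held 69.7 CPM, its adjusted p was 0.0512, and without WT replicate 1 it was 0.0537. Bmp6, a BMP ligand made by endothelial cells, was at 264 ± 128 CPM in KO and 117 ± 76.7 CPM in WT (adjusted p = 0.0257), and Inhbb, an activin subunit gene, was at 72.7 ± 53.2 CPM in KO and 27.5 ± 25.0 CPM in WT (adjusted p = 0.0205). The Bmp6 call was lost without KO replicate 3 (0.0861), KO replicate 4 (0.0647), WT replicate 1 (0.120) or WT replicate 3 (0.106), and the Inhbb call without KO replicate 5 (0.0631) or WT replicate 1 (log2 fold change 0.92, 0.179). Gdf15, a stress-induced ligand of the family, was at 0 in WT replicates 1 to 3 and at 1.90 CPM in WT replicate 4, against 1.52 to 33.4 CPM in KO (adjusted p = 0.00876 by limma), so that WT replicate 4 lay within the KO range. The WT value rests on 2 reads, under the floor of 3 reads.

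Of 9 other receptors and co-receptors, 5 were called higher, with a median log2 fold change of 1.60. Tgfbr3, which encodes the co-receptor betaglycan, was at 242 ± 83.1 CPM in KO (n = 5) and 79.8 ± 49.3 CPM in WT (n = 4), with a log2 fold change of 1.81 (adjusted p = 0.00675 by limma) and no overlap. Acvr1 and Acvr2a, a type I and a type II receptor, also showed no overlap, with log2 fold changes of 1.64 and 2.44 (adjusted p = 0.0121 and 0.00650). Acvr2a held 6, 2, 16 and 7 reads in WT replicates 1 to 4, that of replicate 2 under the floor of 3 reads, so the size of its change is poorly determined. Rgma, a BMP co-receptor gene, was called at 17.8 ± 15.7 CPM in KO and 1.67 ± 1.42 CPM in WT (adjusted p = 0.0127). It held 1, 4, 7 and 1 reads in WT replicates 1 to 4, those of replicates 1 and 4 under the floor of 3 reads. The groups overlapped, with KO replicate 5 at 2.06 CPM and WT replicate 3 at 3.68 CPM. Rgma too may be listed only through its KO reads, which would raise the count and median of this list and was not tested. The Acvr1 call was lost without WT replicate 3 (0.0585) and that of Rgma without WT replicate 1 (0.0550). By contrast Tgfbr1, the type I partner of Tgfbr2, averaged 21.7 CPM in KO and 21.7 CPM in WT, where replicate 4 held 54.2 CPM, with a log2 fold change of 0.41 (adjusted p = 0.511). It was singled out after its values were seen.

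Of the 4 other Smad genes, Smad2 and Smad4 were called higher. Smad2, which carries the TGF-beta signal, was at 73.6 ± 12.1 CPM in KO (n = 5) and 25.1 ± 19.0 CPM in WT (n = 4) with no overlap (log2 fold change 1.77, limma adjusted p = 0.00862). Smad4, the partner of all signalling Smads, was at 75.2 ± 19.4 CPM in KO and 29.6 ± 16.6 CPM in WT (1.44, adjusted p = 0.0178), a call that was lost without WT replicate 1 (0.0761) or WT replicate 3 (0.0562). Smad3 and Smad5 did not pass the test, with log2 fold changes of 0.77 and 1.08 (adjusted p = 0.240 and 0.0541).

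Regulators and targets were called at shares near that of all genes. Of 29 regulators 11 (37.9%) were called higher, with a median log2 fold change of 1.07, and of 14 other target genes 4 (28.6%) were, with a median of 1.11, beside 32.0% and a median of 1.10 over all genes. Thbs1, which encodes an activator of latent TGF-beta, was at 57.2 ± 16.9 CPM in KO (n = 5) and 12.9 ± 9.43 CPM in WT (n = 4), a log2 fold change of 2.29 (adjusted p = 0.00372 by limma) with no overlap. Itgav, the integrin subunit that takes part in that activation, was at 19.6 ± 4.53 CPM in KO and 3.54 ± 2.11 CPM in WT (2.32, adjusted p = 0.00777), also with no overlap. The other regulators named by the rule were Cd109, a TGF-beta co-receptor that dampens signalling (2.57, adjusted p = 0.0141), and Fkbp1a, whose product holds type I receptors inactive (1.68, adjusted p = 0.0151). Cd109 had 0, 1, 1 and 1 reads in WT replicates 1 to 4, each under the floor of 3 reads, against 0.91 to 35.1 CPM in KO. The groups overlapped, with KO replicate 1 at 0.91 CPM and WT replicate 4 at 0.95 CPM, so the size of the Cd109 change is poorly determined. The Cd109 call was lost without KO replicate 4 (0.0505) or WT replicate 1 (0.0607), and the Fkbp1a call without KO replicate 5 (0.0631) or WT replicate 1 (log2 fold change 1.12, 0.103).

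Among the targets, Ccn1, a secreted matrix protein gene, was at 115 ± 45.5 CPM in KO (n = 5) and 25.5 ± 15.3 CPM in WT (n = 4), a log2 fold change of 2.31 (adjusted p = 0.00283 by limma) with no overlap. Cdkn1a, the cell cycle inhibitor gene, was at 45.3 ± 27.3 CPM in KO and 8.34 ± 4.39 CPM in WT (2.34, adjusted p = 0.00522), again with no overlap. Tsc22d1, a TGF-beta-stimulated gene, and Ccn2 were called too, with log2 fold changes of 1.65 and 1.44 (adjusted p = 0.00836 and 0.0297). The Ccn2 call was lost without KO replicate 3 (0.0822), KO replicate 4 (0.0834), WT replicate 1 (0.0878), WT replicate 2 (0.0782) or WT replicate 3 (0.0734). Fn1 and Col1a1, matrix genes also made by fibroblasts, did not pass, with log2 fold changes of 0.22 and 0.17 (adjusted p = 0.655 and 0.785); this pair was named after its values were seen. The lists' median relative log2 fold changes were 0.66 for ligands, 0.62 for receptors, 0.28 for Smads, 0.10 for regulators and 0.13 for targets, against 0.12 over all genes and 0.52 for the endothelial markers.

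**Figure D5:**
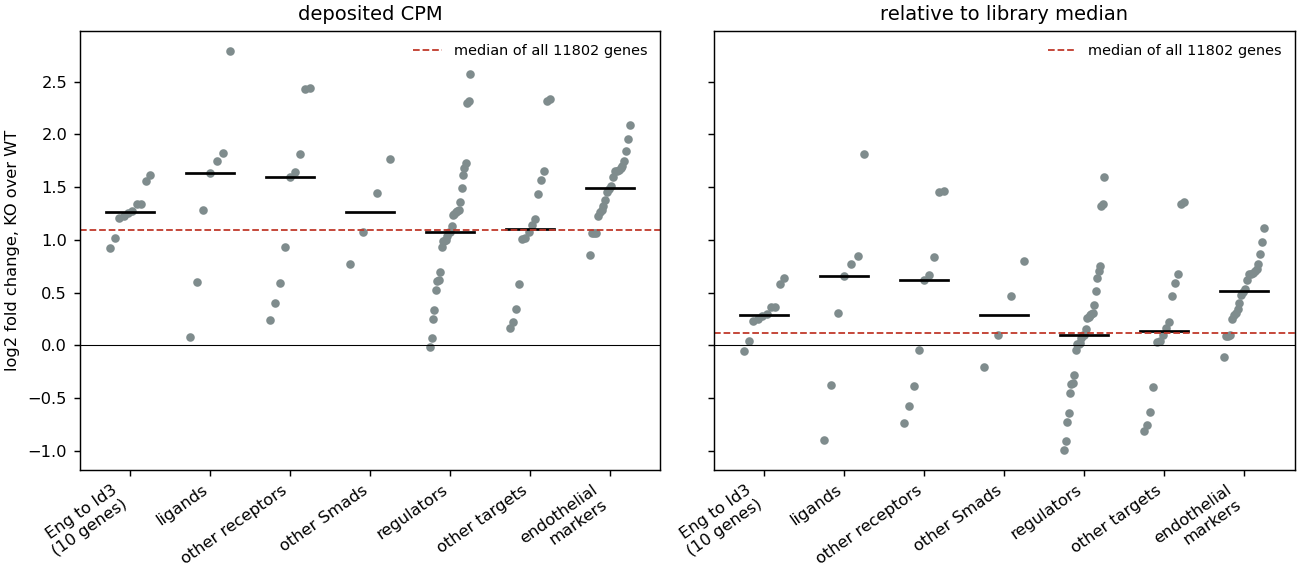
Log2 fold change, KO over WT, of each listed gene (points) in the 10 genes followed here, 5 pathway lists and 22 endothelial markers, in the deposited CPM (left) and relative to the library median (right), with the list median (black line) and the median of all 11802 genes (dashed). In the deposited CPM the medians run from 1.07 to 1.63 beside 1.10 for all genes, and relative to the library median from 0.10 to 0.66 beside 0.12.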

How the data were processed

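Per the labels' protocols, RNA bound to HA-tagged ribosomes was immunoprecipitated from 50 to 100 mg of white adipose tissue, copied with a low-input kit for polyadenylated RNA and tagmented, which does not mark the strand. The authors deposited CPM for each gene, without gene names. Per the submitters' processing notes, which assign no roles, the tools were R 4.0.2, edgeR 3.32.0, HISAT2 2.1.0, Trimmomatic 0.39 and FastQC 0.11.9, with GRCm38 (mm10). How reads were counted, with or without strand, and on which annotation was not given in the sources used here. Symbols, coordinates and exon lengths came from GENCODE M21 (GRCm38), which matched 11797 of 11802 identifiers. In each library 100% of nonzero CPM, after rounding, were whole multiples of a single step within 0.1 read, so read counts could be recovered from the deposited CPM.

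Under R 4.3.3, log2(CPM + 1) was tested with limma 3.58.1, its prior variance following a trend in mean level, for 5 KO against 4 WT libraries, adjusted by Benjamini-Hochberg over all 11802 genes. Because of the added 1, fold changes of low genes are understated. A minimum mean of 1 CPM removed 0 genes, the lowest mean being 1.77. Earlier results of these data show a shift of all genes, so the test was repeated after subtracting each library's median. Single values were compared by exact permutation over 126 splits, whose smallest p is 0.00794. The floor of 3 reads and all counts cover counting error only. edgeR 4.0.16 (quasi-likelihood) and DESeq2 1.42.0 were run on recovered reads as alternatives, and the limma tests were run on simulated data. The simulated libraries shared the same mean profile, apart from a set of changed genes, and held no shift of all genes. They therefore do not check the tests under such a shift.

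The members and lists were chosen with earlier results of these data known. Named beside the members were pathway genes called relative to the median, then up to 4 per list with the smallest p among those called in the deposited CPM, the 3 markers per list with the highest mean CPM, and the 5 genes nearest the members' average. The motifs, the 5 ratios and the setting without both WT replicate 4 and KO replicate 5 were chosen after seeing the data. Ctgf and Cyr61 in the lists matched as Ccn2 and Ccn1. Among the genes listed were 7 of 24 ligands written, 9 of 12 other receptors, 4 of 5 other Smads, 29 of 38 regulators and 14 of 21 other targets.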

Additional observations from a re-analysis of the deposited data

Results flagged for a closer look

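Within groups of 4 or 5 libraries, 8 values stood apart from their group by Dixon's ratio of gap to range, of 90 groups examined; chance flags about 1 in 20 groups. Smad1 was at 125.4 CPM in WT replicate 4, against 44.6 to 54.6 CPM in the other WT libraries, and Smad7 at 40.86 CPM there, against 20.2 to 23.4 CPM. Ccn2 was at 32.31 CPM in WT replicate 4, against 7.91 to 9.45 CPM in the others, and Gdf15 at 1.9 CPM, against 0 in the others. That Gdf15 value is 2 reads, under the floor of 3 reads that a count of 0 allows, so it is not distinguished from the other WT libraries. In KO replicate 5, Tgfb1 was at 69.71 CPM, against 17.6 to 32.5 CPM in the other KO libraries, Gdf15 at 33.44 CPM, against 1.52 to 10.5 CPM, and Fkbp1a at 235.9 CPM, against 45.4 to 77.2 CPM. Cdkn1a was at 92.33 CPM in KO replicate 3, against 23.9 to 41.9 CPM in the other KO libraries. No relative value of the 10 genes was flagged.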

How the results depend on the processing

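In the deposited CPM, 7 of the 10 genes and 3804 of all genes were called. The numbers were 0 and 9 with quantile normalization, 0 and 26 without the mitochondrial rRNAs, 0 and 18 with their share as a covariate, 0 and 0 with the endothelial marker covariate, and 2 and 2911 in limma without trend. Leaving out 1 library gave 2 to 9 of the 10 genes and 1103 to 5930 of all genes. Relative to the library median, 0 of the 10 genes were called in each alternative run. Over all genes 13 were called, with 4 at a pseudocount of 0.5, 5 at a mean CPM of at least 5, 0 centred on endothelial markers, 0 in limma without trend and 0 with either covariate, 6 without WT replicate 4 and KO replicate 5, 5 by edgeR, 141 by DESeq2, and 0 to 127 leaving out 1 library.

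The replicate numbers were not shown to pair libraries: same-numbered deviations correlated at 0.03, −0.02, −0.04 and 0.04 across genes. With the replicate number as a block, which leaves KO replicate 5 without a partner, 2 of the 10 genes and 1940 of all genes were called in the deposited CPM, and 0 and 38 relative to the median. The rRNA share differed by −25.4 percentage points, from −35.3 to −18.4 leaving out 1 library, and passed only without WT replicate 4 (exact permutation p = 0.0179).

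Signs changed as follows. Except for the centring on endothelial markers, the cause was not tested. In the deposited CPM the endothelial covariate gave −0.0503 for Eng, −0.085 for Smad7, −0.61 for Id1, −0.31 for Bmp6 and −0.72 for Inhbb, quantile normalization gave −0.0629 for Smad7, −0.12 for Id2 and −0.17 for Mfn2, and the rRNA covariate gave −0.16 for Inhbb. For relative values, centring on endothelial markers gave −0.14 for Eng, −0.25 for Acvrl1, −0.21 for Smad1, −0.27 for Smad6, −0.46 for Id1, −0.23 for Id2 and −0.14 for Id3. This centring lowers the relative fold change of every gene by the same 0.50, and these signs follow from that shift. The endothelial covariate gave −0.15 for Acvrl1, −0.28 for Smad6, −0.52 for Id1, −0.0376 for Id3 and 0.19 for Mfn2. The rRNA covariate gave −0.18 for Eng, −0.36 for Id1, 0.0533 for Smad7 and 0.0669 for Mfn2. EdgeR gave −0.0066 for Smad6, −0.0285 for Id1 and −0.23 for Id2, and DESeq2 gave −0.0092 for Smad6, −0.0193 for Id1 and −0.25 for Id2. A pseudocount of 5 gave 0.0732 for Smad7 and −0.14 for Id2, and quantile normalization −0.12 for Id2. Leaving out 1 library, relative changes ran from −0.0049 to 0.40 for Acvrl1, −0.17 to 0.64 for Smad6, −0.22 to 0.13 for Smad7, −0.19 to 0.28 for Id1, −0.29 to 1.07 for Id2 and −0.44 to 0.0589 for Mfn2. Ratio differences then ran from −0.22 to 0.32 for Eng over Acvrl1, −0.06401 to 0.16 for Tgfbr2 over Bmpr2 and −0.36 to 0.30 for Smad6 over Smad1. Counts of Id2 ran from 0 to 39 reads a library, the fewest of the 10 genes, so its relative counting error is the largest among them.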
